A study of Mus musculus with 10 samples.

Results

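Igkv17-127, Igkv11-125 and Igkv9-123 are 3 neighbouring variable (V) segments at the distal, low-coordinate side of the mouse immunoglobulin kappa light chain locus. Their junctions were taken as every deposited translocation junction on chromosome 6 that lay inside a segment or within 500 bp of it. This gave 383 junctions of the 5859 in the kappa locus (6.54%) and of the 68433 in all 10 libraries. Igkv17-127 held 85 of them, Igkv11-125 held 157 and Igkv9-123 held 141. The 3 segments were chosen by a measured value, their share of kappa junctions in libraries with AsiSI against the rest, so those shares are given as a description and are not tested.

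V segments are joined to J segments in developing B cells by the RAG recombinase, which cuts next to a recombination signal sequence (RSS). An RSS is made of a heptamer, a spacer and a nonamer, and in kappa V segments the spacer is short. Each cut leaves a coding end, which carries the segment, and a signal end, which carries the RSS. Coding ends are opened by Artemis and joined by classical end joining, which needs DNA ligase IV. Pre-B cells transformed with Abelson virus stop cycling and switch on RAG when the Abl kinase is inhibited with imatinib, and without ligase IV the broken kappa ends stay unrepaired for longer.

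All 10 libraries came from the same kind of cell, Abelson-transformed pre-B cells of C57BL/6 mice with the genotype LIG4-/-. The cells were held in G1 with imatinib for 48 h, and doxycycline at 1 µg/ml was added after 24 h to induce a zinc finger nuclease (ZFN). The ZFN cut on chromosome 6, within the T-cell receptor beta locus, supplied the bait end, and translocation sequencing read the prey ends joined to it. There were 2 untreated and 2 etoposide libraries. IFN, DRB and AsiSI were each given alone in 1 library, etoposide was combined with IFN in 1 and with DRB in 1, and AsiSI was combined with DRB in 1. Etoposide, a topoisomerase II poison, was given at 50 µM for 2.5 h, followed by 12 h of recovery. DRB, an inhibitor of transcription elongation, was given 2 h beforehand, and IFN is an abbreviation that the labels do not spell out. AsiSI, a restriction enzyme, was induced with the same doxycycline and with tamoxifen at 1 µM, added 20 h later, so the 2 AsiSI libraries alone received tamoxifen. The labels do not say whether replicates or groups came from separate cultures or cell lines, so a p-value here covers just the library-to-library spread, and that spread may be technical.

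Libraries held 2044 to 13425 junctions, of which 201 to 1730 lay in the kappa locus (chromosome 6, 67555636 to 70726754, mm10). By their read names, the libraries came from 4 sequencing runs. Both AsiSI libraries formed a run of their own. Untreated and etoposide replicate 1 formed another, with median kappa prey alignments of 251 and 239 bp against 66.5 to 80 bp elsewhere. Run, tamoxifen and AsiSI cannot be told apart. Of all junctions, 91 read sequences occurred in more than 1 library, and 0 of them were among the 383.

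The RSS of each segment is shown first, because it sets which end of the segment RAG cuts and so the meaning of each junction's strand. The sequences were read from the prey part of the deposited reads (mm10 coordinates, 5′ to 3′ away from the segment), with the heptamer and nonamer in capitals and the spacer in lower case. The fourth is Igkv9-124, the neighbour that lies between Igkv11-125 and Igkv9-123.
Igkv17-127, chr6:67861667-67861687, plus strand: ctatgtcctcttACAGAAACC
Igkv11-125, chr6:67914053-67914080, plus strand: CACAGTGatacaagtcataACATAAACC
Igkv9-123, chr6:67954200-67954227, minus strand: CACAGTGatacaaatcataACATAAACC
Igkv9-124, chr6:67942046-67942073, minus strand: CACAGTGatacaaattataACATAAACC

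The heptamer searched for was CACAGTG and the nonamer ACAAAAACC, 12 bp apart, at both ends of every segment and on the matching strand. The 2 full heptamers read among the 3 segments matched at 7 of 7 bases, and each of the 3 nonamers matched at 8 of 9. The 7 heptamer bases of Igkv17-127 were covered by no read. Some bases rest on few reads, with a minimum of 1 for Igkv17-127 and Igkv11-125 and 2 for Igkv9-123. The lowest agreement of reads at any base was 66.7% for Igkv9-123, 95% for Igkv11-125 and 100% for Igkv17-127. The same search gave an orientation for 50 of the 162 V segments of the RefSeq table, and the other 112 were left without one.

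Igkv17-127 (chromosome 6, 67861159 to 67861659) and Igkv11-125 (67913573 to 67914052) had their RSS at the high-coordinate end. Igkv9-123 (67954230 to 67954690) had it at the low-coordinate end, 2 bases beyond the end in the table. The RSS ends of Igkv11-125 and Igkv9-123 therefore face each other, with Igkv9-124 in between. Close relatives are a limit of the mapping. At the RSS end, the read consensus of Igkv9-123 was identical to that of Igkv9-124 at 151 of 162 bases (93.2%), and that of Igkv11-125 to Igkv11-114 at 155 of 166 (93.4%). Igkv11-125 and Igkv9-123 shared 80.7%, while Igkv17-127 shared 54.7% and 57.8% with them. A read short enough to fit several relatives may have been placed at the wrong one, and how often was not tested.

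Igkv11-125 was the segment with the most junctions of the 3 and had a lower share in both AsiSI libraries than in any other. It took 3.80% and 6.72% of kappa junctions in untreated replicates 1 and 2 (9 and 46 junctions). Etoposide replicates 1 and 2 had 3.48% and 4.03% (7 and 17 junctions). IFN had 4.85% (21 junctions) and IFN with etoposide had 4.48% (15 junctions). DRB had 3.75% (12 junctions) and DRB with etoposide had 4.33% (9 junctions). AsiSI had 0.776% (10 junctions) and DRB with AsiSI had 0.636% (11 junctions). The 8 libraries without AsiSI lay close together except for untreated replicate 2, which stood above the rest. The mean was 0.706% ± 0.0994 (SD, n = 2) with AsiSI and 4.43% ± 1.02 (SD, n = 8) without it, a ratio of 6.27.

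Igkv9-123 showed the same split. Its share was 4.64% and 3.50% in the untreated libraries (11 and 24 junctions) and 5.97% and 4.27% in the etoposide libraries (12 and 18 junctions). IFN gave 3.46% (15 junctions) and DRB gave 4.06% (13 junctions). When etoposide was added, these were 4.18% (14 junctions) and 5.29% (11 junctions). The AsiSI library had 0.932% (12 junctions), and adding DRB gave 0.636% (11 junctions). Etoposide replicate 1 was the highest library and IFN the lowest of the 8. The means were 0.784% ± 0.209 (SD, n = 2) with AsiSI and 4.42% ± 0.859 (SD, n = 8) without, a ratio of 5.64. Igkv11-125 and Igkv9-123 thus had almost equal mean shares in the 8 libraries, with ranges of 3.48% to 6.72% and 3.46% to 5.97%.

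Igkv17-127 did not follow the other 2 segments. Untreated replicates 1 and 2 had 3.38% and 1.17% (8 junctions in each). Etoposide replicates 1 and 2 had 2.49% and 0.948% (5 and 4 junctions). IFN gave 1.62% (7 junctions) and DRB gave 0.938% (3 junctions). When etoposide was added, these were 2.99% (10 junctions) and 1.44% (3 junctions). The AsiSI library had 1.24% (16 junctions) and DRB with AsiSI 1.21% (21 junctions). Both AsiSI values lay inside the range of the other 8, with means of 1.23% ± 0.0201 (SD, n = 2) and 1.87% ± 0.953 (SD, n = 8). The 2 libraries of the run with long alignments gave 3.38% and 2.49%, both among the 3 highest values. In the AsiSI libraries Igkv17-127 held the most junctions of the 3 segments, 37 against 21 for Igkv11-125 and 23 for Igkv9-123. In the other 8 it held the fewest, 48 against 136 and 118.

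**Figure D1:**
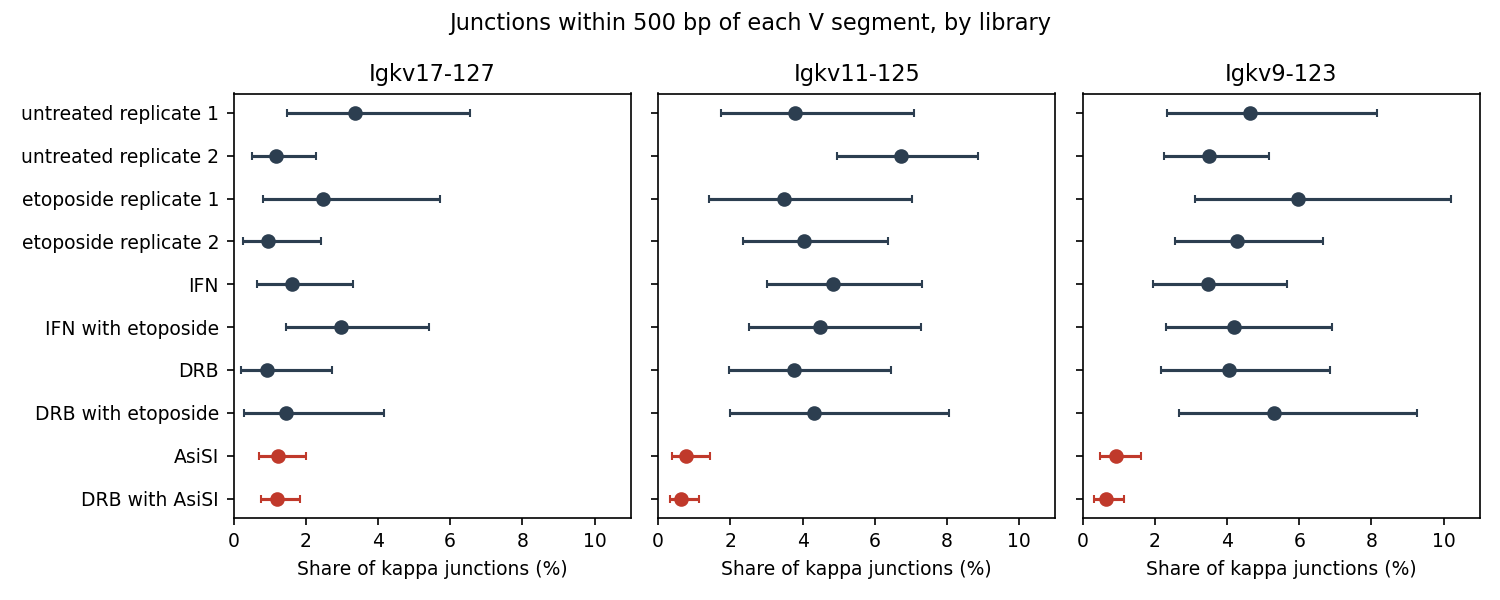
Share of kappa junctions (%, horizontal axis) within 500 bp of each segment in each of the 10 libraries, as points with exact Clopper-Pearson 95% intervals, which cover counting error only; AsiSI libraries are red and the others dark. For Igkv11-125 and Igkv9-123 both red points lie below 1% and all 8 dark points above 3.4%, whereas for Igkv17-127 the red points at 1.24% and 1.21% lie among the dark ones.

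Summed over the 3 segments, the share of kappa junctions was 2.95% with AsiSI (95% interval 2.10 to 4.03, exact Clopper-Pearson) and 2.49% with DRB and AsiSI (1.81 to 3.33). In the other 8 libraries it ran from 8.75% with DRB (5.89 to 12.4) to 11.9% in etoposide replicate 1 (7.80 to 17.2). The means were 2.72% ± 0.329 (SD, n = 2) and 10.7% ± 1.24 (SD, n = 8), a difference of -8.00 percentage points. A share depends on its denominator, and the kappa locus had more junctions in the AsiSI libraries, 1288 and 1730 against 201 to 685. Set against junctions within 1 Mb of the bait break, the 3 segments gave 5.11 and 4.10 per 1000 in the AsiSI libraries and 8.92 to 24.9 in the others. On that scale the kappa locus as a whole gave 173 and 165 per 1000 with AsiSI, inside the range of 92.2 to 211 in the others. Set against all prey junctions, those more than 1 Mb from the bait break, the groups no longer separated. The 3 segments made up 1.70% and 1.47% of prey with AsiSI, above the 0.228%, 1.05% and 1.08% of etoposide replicates 1 and 2 and of IFN with etoposide, and below the 3.06% to 7.39% of the other 5 libraries.

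Other parts of the locus give the context. Of the 27 V segments with at least 20 junctions, 2 (7.41%) were lower in both AsiSI libraries than in all 8 others, and these were Igkv11-125 and Igkv9-123 themselves. A further 4 of the 27 (14.8%) were higher in both, namely Igkv1-117, Igkv2-116, Igkv11-114 and Igkv8-30. Among the other distal V segments, 13 of 70 had at least 20 junctions, with 0 lower and 3 higher. Among the proximal ones it was 11 of 89, with 0 lower and 1 higher. These counts cover only segments with at least 20 junctions. Under that cut, Igkv8-16 (16 junctions) was also lower, at 0% to 0.231% with AsiSI against 0.237% to 0.962%. Igkv2-105, Igkv4-78, Igkv8-31 and Igkv3-1 were higher.

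Kappa J segments (Igkj1 to Igkj5), the joining partners of V segments, also separated by AsiSI. They held 5 junctions in the AsiSI libraries, 0.233% and 0.116% of kappa junctions, and 154 in the others, 3.48% to 7.21%. Igkv11-114 and Igkv1-117 together had 9.63% and 9.94% with AsiSI against 2.11% to 6.56%. Igkv6-32, Igkv8-30 and Igkv8-34 overlapped, with 12.2% to 13.8% with AsiSI and 5.97% to 13.7% without. Junctions away from any segment made up 49.5% to 51.3% with AsiSI and 36.7% to 48.1% without. Igkv11-114, the near-identical relative of Igkv11-125, was thus higher in the libraries where Igkv11-125 was lower, and exchange of reads between them was not tested.

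**Figure D2:**
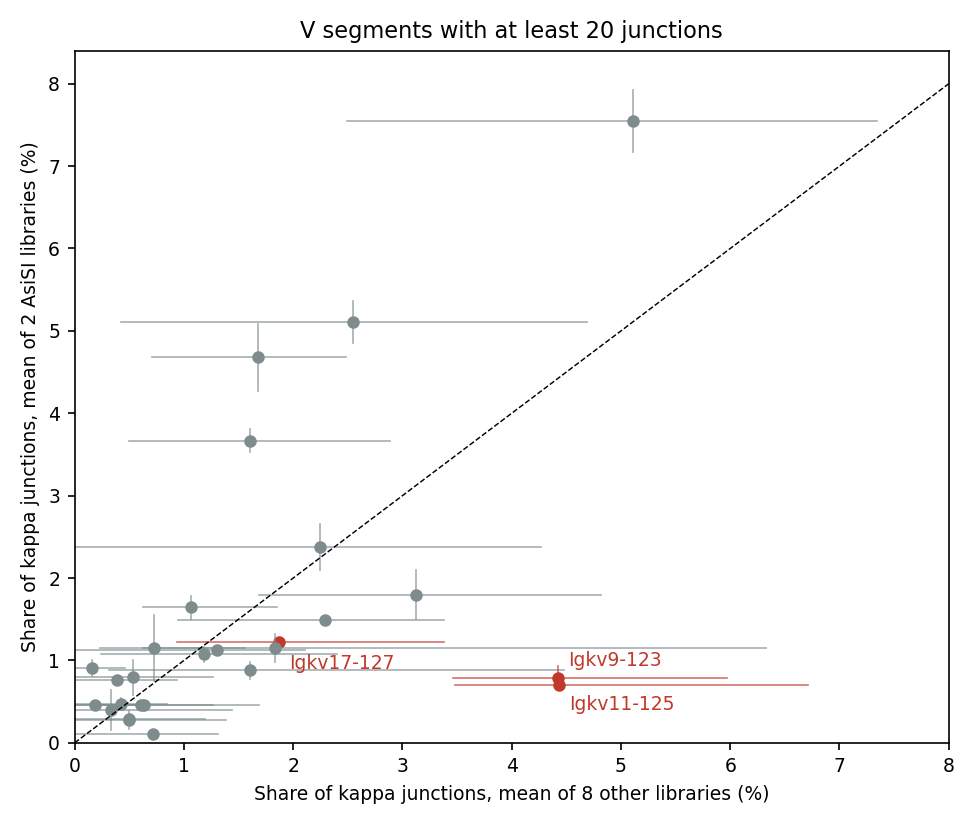
Mean share of kappa junctions (%) in the 2 AsiSI libraries (vertical axis) against the mean in the 8 others (horizontal axis) for the 27 V segments with at least 20 junctions; lines span the lowest to the highest library and the dashed line marks equal shares. Igkv11-125 (4.43% and 0.706%) and Igkv9-123 (4.42% and 0.784%) sit far below the dashed line, and Igkv17-127 (1.87% and 1.23%) sits near it.

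Of the immediate neighbours, Igkv9-124 alone had more than 10 junctions. Igkv9-128, a pseudogene 13285 bp below Igkv17-127, had 0 junctions, and the pseudogenes Igkv14-126-1 and Igkv14-126 had 1 and 10. Igkv1-122, 62052 bp above Igkv9-123, had 8. Igkv9-124, 11690 bp from Igkv9-123, had 80, with 0.983% to 1.32% of kappa junctions in the AsiSI libraries and 0.625% to 6.33% in the others, so its groups overlapped. It shares its 7 heptamer and 9 nonamer letters with Igkv9-123.

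By library profile (the share in each of the 10 libraries divided by its mean), the segments most like the 3 summed were Igkv10-95, Igkv8-34 and Igkv6-25, out of 13 with at least 50 junctions. Their mean absolute differences from the summed profile were 0.278, 0.344 and 0.392. Igkv10-95 had a mean of 1.49% with AsiSI and 2.29% without, and Igkv8-34 had 1.80% and 3.13%. Igkv6-25 had 1.13% and 1.30%. All 3 had smaller gaps than Igkv11-125 or Igkv9-123. The gap at Igkv17-127 (1.23% and 1.87%) was smaller than at Igkv10-95 or Igkv8-34 and larger than at Igkv6-25.

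Etoposide gave no detectable shift in the share of kappa junctions that fell at the 3 segments. The untreated libraries had 11.8% and 11.4% and the etoposide libraries 11.9% and 9.24%, so the groups overlapped. The difference was -1.01 percentage points (10.6% ± 1.91 against 11.6% ± 0.302, SD, n = 2 each; exact two-sided permutation p = 1, where 0.333 is the smallest p that 2 against 2 allows). Within replicate 1, whose libraries shared a run, the difference was 0.126 points, and within replicate 2 it was -2.15. Replicate 2 and the IFN and DRB pairs each set a library of a run without etoposide against one of a run in which all 3 libraries had it, so there etoposide and run cannot be told apart. As a share of prey junctions, the 3 segments had 0.638% with etoposide and 5.23% untreated, a difference of -4.59 points with no overlap (exact permutation p = 0.333, the smallest possible). The etoposide libraries had 10521 and 3721 prey junctions and the untreated ones 915 and 1055. By segment, as a share of kappa junctions, Igkv17-127 had 1.72% ± 1.09 with etoposide against 2.27% ± 1.56, Igkv11-125 had 3.76% ± 0.386 against 5.26% ± 2.06, and Igkv9-123 had 5.12% ± 1.20 against 4.07% ± 0.805 (SD, n = 2 each; exact permutation p = 0.667 for each of these 3 comparisons, unadjusted).

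Both strands were used at every segment. A plus-strand junction means that the prey sequence runs towards higher coordinates from the break. Igkv17-127 had 41 plus and 44 minus junctions, Igkv11-125 had 63 and 94, and Igkv9-123 had 70 and 71. Over the 3 segments, untreated replicates 1 and 2 had 42.9% and 46.2% of junctions on the plus strand. Etoposide replicates 1 and 2 had 54.2% and 43.6%. IFN gave 37.2% and DRB gave 50.0%, and when etoposide was added these were 48.7% and 43.5%. The AsiSI library had 44.7%, and adding DRB gave 46.5%. The AsiSI libraries lay in the middle of the others, 45.6% ± 1.26 (n = 2) against 45.8% ± 5.20 (SD, n = 8), with an exact two-sided permutation p of 0.956. Etoposide differed from untreated by 4.37 points (48.9% ± 7.48 against 44.5% ± 2.33, SD, n = 2 each; exact permutation p = 0.667), with opposite signs in the pairs, 11.3 and -2.56. The AsiSI values rest on 38 and 43 junctions, so a small change in strand balance was not detectable. The sum also mixes ends, because the plus strand carries signal ends at Igkv17-127 and Igkv11-125 and coding ends at Igkv9-123.

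With the RSS as reference, strand becomes side. On the coding side the prey runs in the direction from the RSS end to the other end of the segment. On the signal side it runs in the opposite direction. Coding end and signal end are used below as names of these strand classes, wherever the break lay. Coding ends made up 208 of the 383 junctions and signal ends 175. By library, the coding share was 58.5% ± 10.3 (SD, n = 2) with AsiSI and 53.4% ± 8.75 (SD, n = 8) without, an exact two-sided permutation p of 0.556. It was 50.2% ± 5.67 with etoposide and 62.1% ± 8.09 untreated (SD, n = 2 each), and that p was 0.333, the smallest exact value that 2 against 2 allows. Both comparisons by side were chosen after seeing the data.

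Almost all prey sequences ran away from the RSS end of the segment, into the segment when the break lay inside it and away from it when the break lay outside. These junctions are called outward here. They include coding-side breaks beyond the other end of the segment, whose prey carries none of it. Of the 201 outward coding ends, 170 lay within 500 bp of the RSS end, and the segments are 501, 480 and 461 bp long. At Igkv17-127 77 of 85 were outward (90.6%), at Igkv11-125 148 of 157 (94.3%) and at Igkv9-123 132 of 141 (93.6%). In all this was 357 of 383 (93.2%), and at the 47 other V segments with an orientation it was 82.6% of 2265 junctions. Of the 383, 291 lay within 100 bp of the RSS end, which was 65.9% at Igkv17-127, 81.5% at Igkv11-125 and 75.9% at Igkv9-123, against 64.5% at the other segments. These shares also depend on segment length, since the window spans the whole segment.

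The 2 sides differed in how far from the RSS end the junctions lay. Since the 500 bp window reaches through the whole segment on the coding side, distances were compared only up to 500 bp on both sides. The median was 48 bp for 170 coding ends and 31.5 bp for 156 signal ends. By segment it was 42.5 against 25.5 bp at Igkv17-127, 51 against 32 bp at Igkv11-125 and 44 against 33 bp at Igkv9-123. Of the coding ends, 17.6% lay beyond 100 bp, and of the signal ends 6.41%. The coding median was above the signal median in 10 of 10 libraries, 34.0 to 69.0 bp against 22.0 to 37.0 bp, although by only 0.5 bp in the AsiSI library (34.0 and 33.5). At the other V segments the medians were 46 and 37 bp, and 18.5% and 13.1% lay beyond 100 bp.

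Long distances on the coding side occurred at all 3 segments. Over the full window, 20 of the 41 outward coding ends of Igkv17-127 lay beyond 100 bp, against 18 of 93 at Igkv11-125 and 23 of 67 at Igkv9-123. On the signal side it was 2 of 36, 3 of 55 and 5 of 65. In the 8 libraries without AsiSI the shares beyond 100 bp were 45.0%, 20.0% and 29.6% in the same order, and in the AsiSI libraries 52.4%, 15.4% and 53.8%. The coding-side medians in the AsiSI and DRB with AsiSI libraries went different ways. For Igkv9-123 they were 572 bp (8 ends) and 44 bp (5 ends), against 51 bp over 54 ends in the 8 others. For Igkv17-127 they were 60 bp (10 ends) and 363 bp (11 ends), against 76.5 bp over 20 ends. For Igkv11-125 they were 51 bp (7 ends) and 56.5 bp (6 ends), against 53 bp over 80 ends. These medians rest on few ends per library and were not tested.

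The window did not end the signal. Between 500 bp and 2000 bp from the segments there were a further 32 junctions at Igkv17-127, 57 at Igkv11-125 and 80 at Igkv9-123. Outward coding ends numbered 115 of these 169 and outward signal ends 30. The outermost junctions inside the limit lay 496, 494 and 487 bp from Igkv17-127, Igkv11-125 and Igkv9-123, and the first outside it lay at 561, 508 and 503 bp.

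**Figure D3:**
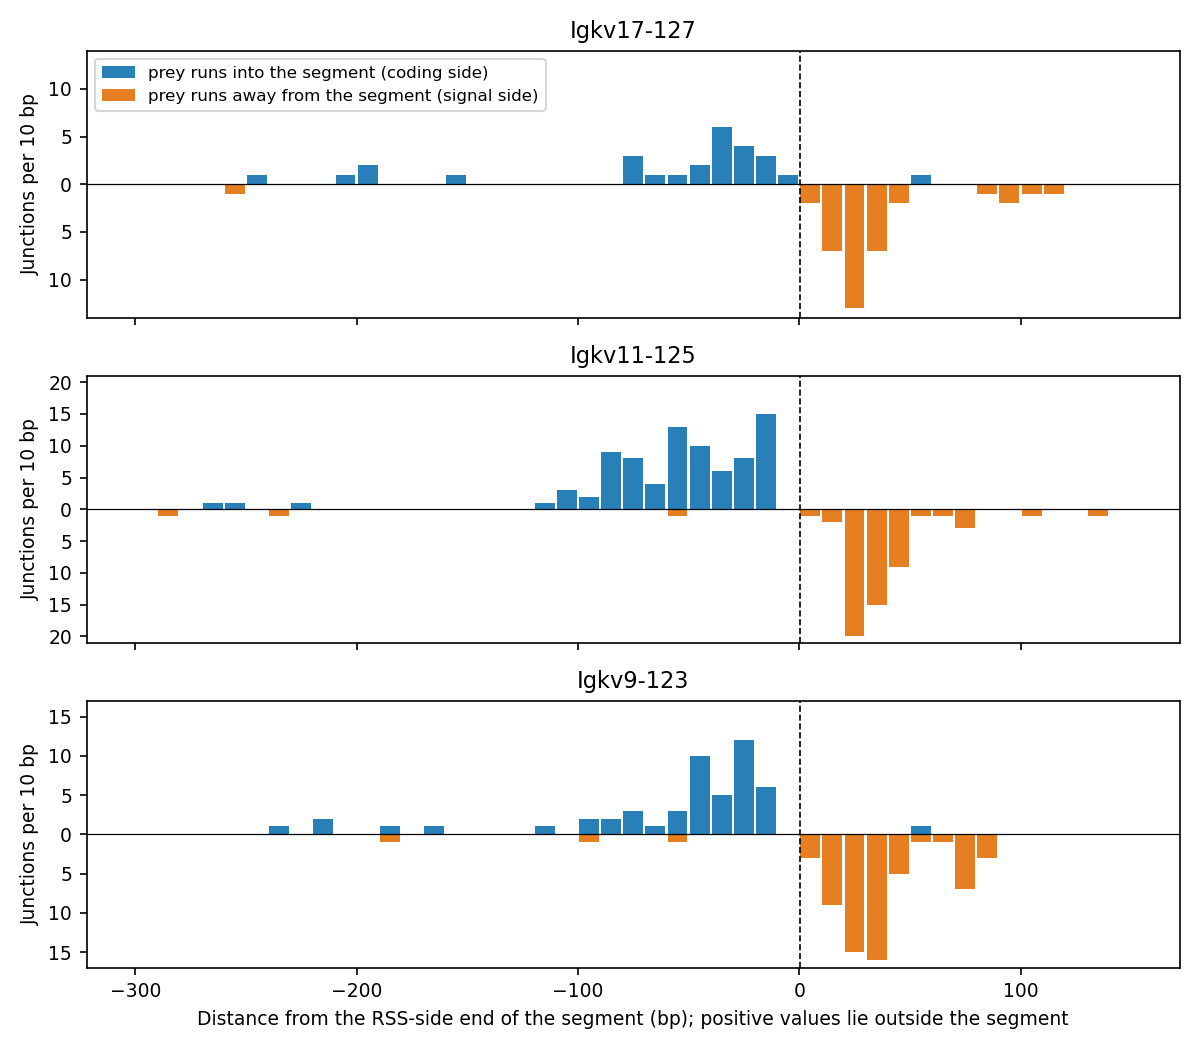
Junctions per 10 bp (vertical axis) against distance from the RSS-side end of the segment (bp, horizontal axis, positive outside the segment), all 10 libraries summed, coding side upward in blue and signal side downward in orange; 317 of the 383 junctions fall in the range plotted. Blue bars fill the inside of each segment and orange bars the outside, with the tallest orange bars 20 to 40 bp out and hardly any bar within 10 bp of the end.

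Joints at the exact border of segment and RSS were rare. Within 10 bp of the RSS end lay 5 junctions at Igkv17-127, 1 at Igkv11-125 and 3 at Igkv9-123, 9 of 383. The nearest coding ends were 4, 12 and 15 bp inside the segments. The share within 10 bp was 3.49% ± 4.93 (SD, n = 2) with AsiSI and 1.82% ± 2.48 (SD, n = 8) without, an exact two-sided permutation p of 0.6. With etoposide it was 1.28% ± 1.81 and untreated 4.85% ± 3.24 (SD, n = 2 each), an exact permutation p of 0.667. All 3 junctions of this kind in the AsiSI libraries came from DRB with AsiSI.

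The 3 segments were then set against the other oriented V segments within each library. The choice of segments used their junction counts in the window and not the position inside it. Whether counts and position are related was not tested. Within 10 bp of the RSS end lay 2.16% of their junctions on average against 4.48% at the other segments, a difference of -2.33 points (SD of the difference 2.70, n = 10 libraries). It was lower in 8 of 10 libraries, with an exact two-sided sign-flip permutation p of 0.0293 and 0.0879 after Benjamini-Hochberg adjustment over 3 such comparisons, which misses the threshold of 0.05. Without DRB with AsiSI, the difference was -2.94 points with an adjusted exact p of 0.0234. Against only those other segments with at least 50 junctions it was -1.20 points (exact p = 0.191, 0.574 adjusted).

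Within 50 bp the order was the opposite. The 3 segments had 55.9% of their junctions there and the other segments 45.9%, a difference of 10.0 points, higher in 10 of 10 libraries (exact sign-flip permutation p = 0.00195, the smallest possible; 0.00586 adjusted). Against the segments with at least 50 junctions the difference was 12.1 points, with the same adjusted exact p of 0.00586. The 50 bp border was an alternative to the main one of 10 bp, as was 3 bp, where the difference was 0.0177 points. The adjustment does not cover this choice of width. By segment the share within 50 bp was 55.3% at Igkv17-127, 54.8% at Igkv11-125 and 57.4% at Igkv9-123. Shares within 10 bp and 50 bp are over a window that spans the whole segment. They therefore also depend on segment length, which was not adjusted for. For outward ends up to 500 bp away, the coding medians were 48 bp for the 3 segments and 46 bp for the others. On that side 17.6% and 18.5% lay beyond 100 bp. The signal medians were 31.5 and 37 bp, with 6.41% and 13.05% beyond 100 bp.

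Most signal ends had lost part of the RSS. Of the 36 outward signal ends of Igkv17-127, 0 began in the heptamer, 9 in the spacer, 13 in the nonamer and 14 beyond the RSS. At Igkv11-125 it was 1, 2, 20 and 32 of 55, and at Igkv9-123 2, 11 and 15 in these parts and 36 beyond, of 65, with the other 1 before the heptamer. Ends that began beyond the RSS made up 38.9%, 58.2% and 55.4% in this order. An intact signal end begins at the first base of the heptamer, and at most 2 of the signal ends of any of the 3 segments began anywhere in it.

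Repeated joints show where the nonamer and the bait share letters. The bait, read on its plus strand next to the ZFN cut, with the letters shared with the nonamers in capitals, is the following.
Bait, chr6:41554930-41554949: tctaaataATAAACCgaatg
The most repeated signal-side joint of each segment follows, bait first and prey last in lower case, with the bases shared by both in capitals.
Igkv17-127, 4 junctions in 4 libraries: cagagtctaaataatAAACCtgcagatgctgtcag
Igkv11-125, 5 junctions in 5 libraries: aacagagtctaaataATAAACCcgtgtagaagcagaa
Igkv9-123, 5 junctions in 5 libraries: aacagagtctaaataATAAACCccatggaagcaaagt

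In all 3 joints the bait ended at base 41554944, and the prey began 24, 22 and 24 bp from the end of the segment. The shared letters were the last 5 or 7 bases of the nonamers shown above (ACAGAAACC and ACATAAACC). That bait end was used by 16 of the 175 signal ends (9.14%), in 8 libraries, and by 2 of the 208 coding ends (0.962%). At the other oriented V segments it was used by 46 of 987 signal ends (4.66%) and 18 of 1278 coding ends (1.41%). In the kappa locus as a whole it made up 2.66%, and among prey outside the locus 1.06%. This bait end was picked because the most repeated signal-side joints of the 3 segments had it. Those joints, with 4, 5 and 5 junctions, are among the 16 signal ends. The higher share at the 3 segments therefore largely restates that choice, and it was not tested.

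Coding-side joints had other shared letters. The most repeated ones of Igkv17-127 and Igkv11-125 are shown in the same layout.
Igkv17-127, 2 junctions in 2 libraries: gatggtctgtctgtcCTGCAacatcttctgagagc
Igkv11-125, 4 junctions in 3 libraries: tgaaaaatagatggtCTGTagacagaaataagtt

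The first lay 34 bp and the second 17 bp inside the segment. At Igkv9-123 the most repeated coding-side joint began 44 bp inside the segment, at base 67954274, and occurred in 5 junctions from 5 libraries. The same joint in several libraries was never the same full read sequence, since 0 read sequences of the 383 were shared between libraries. Alignment lengths differed between runs, so this cannot tell whether repeated joints arose independently. Positions were otherwise spread, with 71, 95 and 102 distinct ones among the 85, 157 and 141 junctions of Igkv17-127, Igkv11-125 and Igkv9-123.

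Most junctions had bases that fit both bait and prey. Microhomology of at least 1 base occurred in 77 of 85 junctions at Igkv17-127 (90.6%), 135 of 157 at Igkv11-125 (86.0%) and 114 of 141 at Igkv9-123 (80.9%). Inserted bases occurred in 6, 14 and 22 (7.06%, 8.92% and 15.6%), and direct joints in 2, 8 and 5. The median overlap was 3 bases at each segment, and the longest was 8, 8 and 12 bases. The longest insertions were 9, 21 and 12 bases.

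Joint structure did not differ detectably from that of the other V segments, and the spread between libraries was wide. Microhomology was at 85.9% ± 8.49 for the 3 segments and 85.2% ± 2.37 for the other V segments (SD, n = 10 libraries), a difference of 0.689 points that was positive in 6 of 10 (exact sign-flip permutation p = 0.820, also 0.820 adjusted). Insertions were at 10.3% ± 5.23 and 9.77% ± 1.89, a difference of 0.478 points that was positive in 5 of 10 (exact p = 0.795, 0.820 adjusted). The lowest microhomology was 67.9% with DRB and the highest 95.8% in etoposide replicate 1, from 28 and 24 junctions. These differences had SDs of 9.22 and 5.47 points over the libraries, so small differences were not detectable at this depth.

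**Figure D4:**
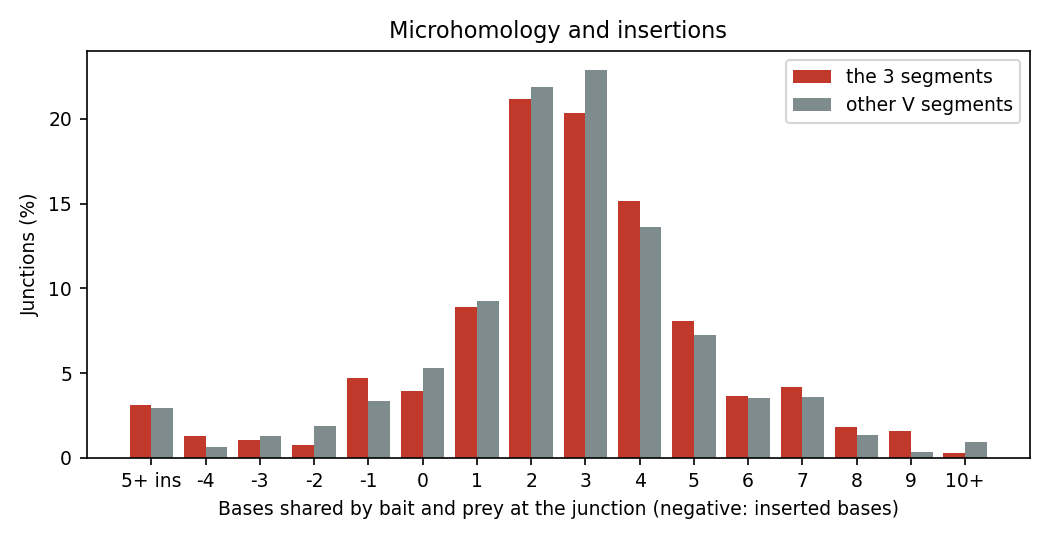
Percent of junctions (vertical axis) by the number of bases shared by bait and prey (horizontal axis, negative for inserted bases, 0 for a direct joint), all libraries summed, for the 3 segments in red (383 junctions) and the other V segments in grey (2527). Both distributions peak at 2 and 3 bases, with 21.1% and 20.4% for the 3 segments and 21.9% and 22.9% for the others.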

How the data were processed

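Each row of the authors' deposited files is 1 junction, with position, strand, bait and prey alignment and read sequence, per the file headers. These other values are coordinates and strands, with no normalization, and no counts per region. Linear-amplification-mediated translocation sequencing on the MiSeq and its standard pipeline are named per the labels' protocols. The submitters' processing notes name bedtools, mm10 and GRCm38.p2. Filters for duplicates or mapping quality are not given in the sources used here.

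Groups came from the labels. Gene positions came from the RefSeq table of GRCm38.p6, which shares main-chromosome coordinates with mm10. It gives no strand and no genome was used here, so a segment's orientation was set from the RSS in the consensus of the reads: at least 7 matching bases and 75% of the read ones among 16 fixed bases, within 3 bases of the segment's end. That rule was set after seeing the data. Distances run from that end. Overlap is the bait's last query base minus the prey's first, plus 1, and may hold a mismatch. All rows were counted, including 2 of the 383 that repeat another row.

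The named segments were the 3, the comparator groups, the 3 segments most alike in profile and the nearest annotated neighbours. The members and lists were chosen with earlier results of these data known. Tests were exact two-sided permutation tests over libraries, whose smallest p is 0.0222 for 2 against 8, and exact sign-flip tests over 10 libraries. Intervals cover counting error only. Alternatives were window, border, denominator, repeated rows, comparators, left-out libraries, the first run and the replicate block. Python 3.11.15, pandas 2.3.3, numpy 2.4.6 and scipy 1.17.1 were used, and the scripts were tested on simulated data.

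The labels name untreated replicates 1 and 2 as the controls of etoposide replicates 1 and 2, but state no shared culture or day.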

Additional observations from a re-analysis of the deposited data

Results flagged for a closer look

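Igkv11-125 had 6.72% of kappa junctions in untreated replicate 2, farther from the other 7 libraries without AsiSI than Dixon's test allows (the median of the 8 was 4.18%). Chance flags about 1 group in 20.

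The etoposide difference at Igkv17-127 was 1.37 percentage points with IFN and 0.505 with DRB, each from 1 pair of libraries, against -0.888 and -0.220 in the pairs without either. At Igkv11-125 the etoposide difference was 0.577 with DRB against -0.315 and -2.69. These values rest on few junctions. Igkv17-127 had 7 with IFN and 10 with IFN and etoposide, and 3 both with DRB and with DRB and etoposide. Igkv11-125 had 12 with DRB and 9 with DRB and etoposide, of 320 and 208 kappa junctions, so its count fell while its share rose. The signs were opposite in all libraries concerned, and whether these effects differ was not tested. All these pairs except replicate 1 (-0.888 and -0.315) also compare different sequencing runs.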

How the results depend on the processing

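Of 128 alternatives, 101 were counted as unchanged, which for tested results means the same direction and side of the threshold. The etoposide ones among them (9 for share, 7 for plus strand, 9 for border) could not cross it, since no p under 0.333 was possible. The AsiSI difference in share has no p-value. Its 15 kept the direction and moved by less than 1.24 points, the SD of the libraries without AsiSI. The AsiSI difference in the share of the 3 segments was negative in all its alternatives; it was -15.9 points over junctions near V segments and -2.18 over prey junctions, where the libraries overlapped, and -8.28 to -7.77 when each library was left out. Leave-one-out ranges were -2.36 to 0.340 for the etoposide difference in share, -1.37 to 1.05 (AsiSI) and -0.916 to 9.66 (etoposide) for the plus strand, -1.82 to 5.15 and -5.86 to -1.28 for the 10 bp border, and, against other V segments, -2.94 to -1.93 for the border, -0.780 to 2.74 for microhomology and -0.386 to 1.41 for insertions. The border call was reached only without DRB with AsiSI (-2.94).

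Signs turned, none past its threshold except at 50 bp against other segments, as follows. The plus-strand AsiSI difference was 0.0212 with a 200 bp window, 1.53 with 1000 bp, 1.57 against libraries without etoposide and 0.766 without the first run. The border difference was -0.897 (AsiSI) and 0.0177 (other segments) at 3 bp, and 3.32 (etoposide), 10.0 (other segments) and 12.1 (those with at least 50 junctions, chosen after seeing the data) at 50 bp. Microhomology was -0.964 for at least 3 bases and -1.65 without the first run, and insertions -0.909 with 1000 bp. The cause was not tested.

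With the replicate block, pairing by the number in the labels, the etoposide differences were -1.01 (share), 4.37 (plus strand) and -3.57 (border) as without it. The exact sign-flip p = 1 for each, with 0.5 as the smallest p that 2 pairs allow, so no call could change. Depth limits all member values, from 23 to 78 junctions per library.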
